A study of Mus musculus with 54 samples.

Results

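Exonic peaks away from promoters are stretches of open chromatin whose centre sits on an exon and not at a transcription start site (TSS). They were taken from the merged ATAC-seq peak list of OCT4-AID mouse embryonic stem (ES) cells. A peak was a member when the base at its centre lay more than 1000 bp from every TSS of the GENCODE M21 annotation and inside an exon of any transcript, on an autosome of build GRCm38. The rule selected 5458 peaks out of 113737 in the list, or 4.88% of the 111741 autosomal peaks (Wilson 95% confidence interval 4.76 to 5.01%, counting error only) and 6.17% of those away from promoters. The others away from promoters were 39272 intronic and 43702 intergenic peaks. No value measured in the cells entered the rule beyond the position of the peak. Only the centre was tested, so that a wide member can still reach over a TSS. Just beyond the distance limit, 75 members had their centre at most 50 bp farther from a TSS than the limit, and 66 exonic peaks lay within the last 50 bp before it and were left out.

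The list was made from ZHBTc4 mouse ES cells, whose own Pou5f1 gene, the source of OCT4, is shut off by doxycycline (dox). All 24 groups (54 samples, 2 or 3 per group) carried mCherry-OCT4-AID, an OCT4 fusion expressed at low level from a PGK promoter and broken down in the presence of the auxin indole-3-acetic acid (IAA), the Tir1 ubiquitin ligase on which this breakdown depends, expressed constitutively from a lentiviral vector, and the cell cycle reporter YPet-MD. All received dox. Cells sorted into early G1, late G1, S and SG2 phases had 26 hr of dox and either 2 hr of 500 nM IAA (EarlyG1_IAA, LateG1_IAA, S_IAA, SG2_IAA) or none (EarlyG1_ctrl, LateG1_ctrl, S_ctrl, SG2_ctrl). Washout cells had 31 hr of dox, with or without 2.5 hr of IAA followed by 4.5 hr without it, and were sorted into the same phases (IAAwash and controlwash). The time course had 34 hr of dox and IAA for 0, 0.5, 1, 2, 3, 4, 6 or 10 hr without sorting. The fusion was carried by a sorted population of 1 parental line, so that the list describes 1 cell line in which a tagged protein stands in for untagged OCT4. The list holds 1 start and 1 end per region for the whole series, so that no peak had a value in a sample or a group, the depth is unknown, and a peak opened in any 1 condition counts like a peak found in all.

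ATAC-seq marks DNA that the Tn5 transposase can reach, mostly at promoters, enhancers and sites of the insulator protein CTCF. Exons are the parts of a transcript that remain after splicing. They hold the coding sequence, the 5′ and 3′ untranslated regions (UTRs), or no reading frame at all in non-coding RNAs. Coding sequence is richer in G and C and poorer in repeats than introns, and some enhancers and CTCF sites are known to lie within it. In most genes the last exon is much longer than the inner ones, since it holds the end of the reading frame and the whole 3′ UTR.

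The sequences below show matches to the CTCF consensus in members with a coding centre, as examples of motif matches in exons. Whether CTCF binds there was not measured in the list. In 59 members with a coding centre (1 autosome was not searched), the 300 bp around the centre held an exact match to the 12 bp core of the CTCF consensus. The 6 whose match lay closest to the centre are given 5′ to 3′ on the strand of the match, with the match in capitals and 9 bases of GRCm38 sequence on each side. All 6 matches lay inside the annotated exon.
Dmrt1, chr19:25545846-25545875, plus strand: ctgctgtcaCCAGCAGAGGGCatatggaga
Kcnj9, chr1:172326307-172326336, plus strand: ggcgatgagCCACCAGATGGCgccgaagaa
Pgls, chr8:71596108-71596137, minus strand: gtccaggaaCCAGCAGAGGGCgcccgtgcg
Dglucy, chr12:100841399-100841428, minus strand: tcattgtgaCCACCAGAGGGCagcagaagc
Herpud1, chr8:94392362-94392391, minus strand: catcttcctCCACCAGGGGGCcaccttgtg
Yipf7, chr5:69521088-69521117, minus strand: ccaatgaagCCAGCAGATGGCagcatcatg
The match in Dmrt1, which encodes a transcription factor of gonad development, stood 4 bp from the centre of a 767 bp peak over its exon 3 of 5. In Kcnj9, a potassium channel subunit gene, it stood 5 bp from the centre of a 1238 bp peak over exon 3 of 4. In Pgls, which encodes an enzyme of the pentose phosphate pathway, it stood 7 bp from the centre of a 542 bp peak in the last exon. The distances were 16 bp in Dglucy, 23 bp in Herpud1, a gene of the endoplasmic reticulum stress response, and 27 bp in Yipf7. Matches to this consensus in exonic and intronic peaks are compared further on.

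Exonic bases held more peaks per length than intronic bases. The number of peak centres was divided by the number of eligible bases, which are the bases of a class that lie more than 1000 bp from every TSS and are not N. Over the 19 autosomes together, exons held 67.6 peaks per Mb (5458 in 80.8 Mb), introns 40.7 peaks per Mb (39272 in 965 Mb) and intergenic sequence 36.4 peaks per Mb. The density on single autosomes ran from 47.5 on chromosome 14 over a median of 66.1 to 91.2 on chromosome 15 for exons, and from 29.2 on chromosome 16 to 49.1 on chromosome 15 for introns. The autosomes served as units of the test, because peaks are not replicates and the list has no samples. The mean log2 ratio of exonic over intronic density was 0.73 ± 0.15 (SD, n = 19 autosomes), with the exon denser on 19 of 19 (adjusted p = 2.36e-05, two-sided sign-flip permutation test, Benjamini-Hochberg over 13 comparisons). The raw p behind it, 2e-05, is the smallest these draws could give, and it applies to each adjusted p of this size.

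The members were unevenly spread over the kinds of exon. Coding sequence held 2482 members (45.5%, interval 44.2 to 46.8%), 3′ UTRs 1582 (29.0%), exons only of transcripts not annotated as protein-coding 1367 (interval 23.9 to 26.2%) and 5′ UTRs 27 (0.495%). The third class, called non-coding exons here, was set by transcript type and not by the absence of a reading frame. Per length, coding sequence held 104 peaks per Mb in 23.9 Mb, against 54.6 in 29.0 Mb of 3′ UTR, 50.1 in 27.3 Mb of non-coding exons and 43.8 in 0.616 Mb of 5′ UTR. Coding sequence was 1.90 times as dense as 3′ UTRs. On single autosomes this ratio ran from 1.43 on chromosome 1 over a median of 1.91 to 2.66 on chromosome 14, and its mean log2 was 0.94 ± 0.23 (SD, n = 19), above 0 on 19 of 19 autosomes (adjusted p = 2.36e-05, same permutation test). Against non-coding exons the mean log2 ratio was 1.04 ± 0.29 (SD, n = 19; adjusted p = 2.36e-05, permutation test), and the 2 ranges did not overlap, with 77.3 the lowest density for coding sequence and 66.3 the highest for non-coding exons. Against 5′ UTRs the mean log2 ratio was 1.00 ± 1.11 (SD, n = 19; adjusted p = 0.000542, permutation test), higher on 16 of 19. On 5 autosomes 5′ UTRs held 0 members, so that the ratio there rests on the 0.5 added to each count, and no autosome held more than 4. This call was lost with a TSS distance of 500 bp, where the ratio was 0.03 (adjusted p = 0.861, permutation test).

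**Figure D1:**
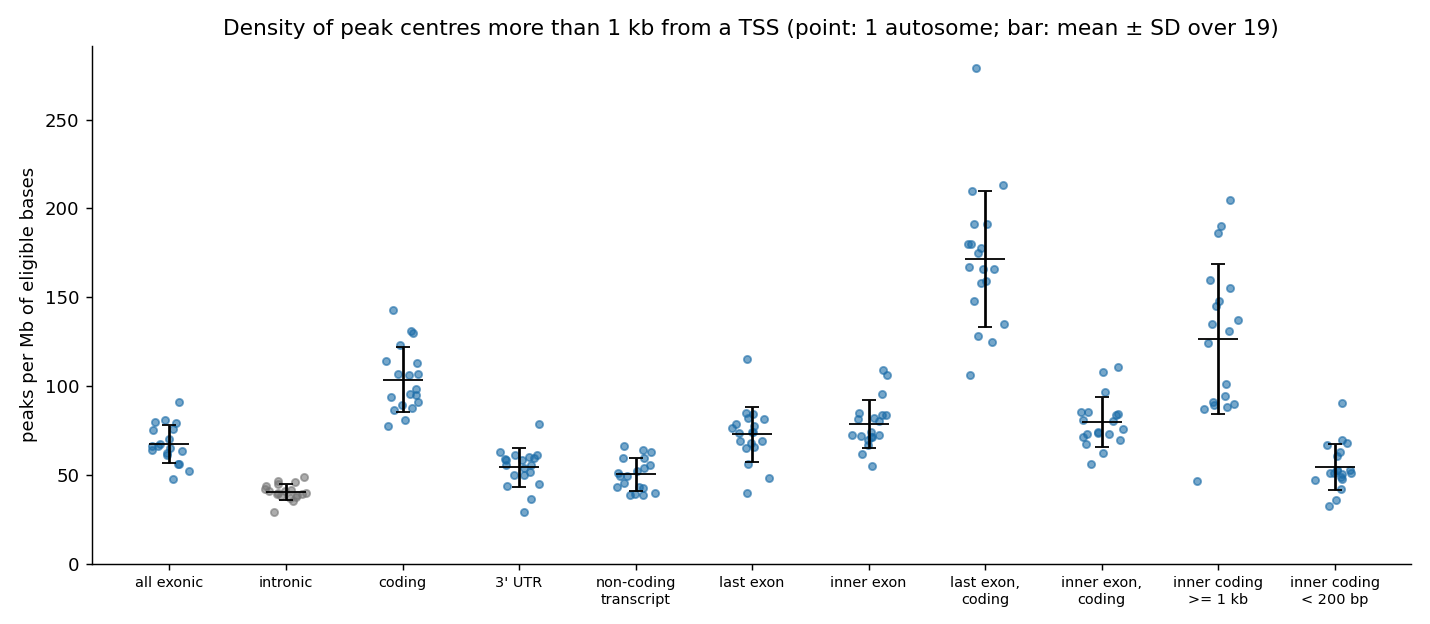
Peaks per Mb of eligible bases (y axis) for 10 sets of exonic bases and for introns (x axis), with 1 point per autosome and the mean ± SD over the 19 autosomes as bars. Of the sets drawn, coding sequence in last exons sits highest, at a mean of 171 peaks per Mb, and introns lowest, at 40.4. First exons and 5′ UTRs, with few members, are not drawn.

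Peak density rose steeply with the GC content of the sequence, and 5 of 7 density ratios lost their call or turned direction when GC was held fixed. Eligible coding bases had 51.0% GC, 3′ UTR bases 42.7% and intronic bases 42.2%. Every base was therefore placed by the GC share of the 300 bp around it in 1 of 8 bins, a comparison added after the data had been seen. Exonic density rose from 8.21 peaks per Mb below 35% GC to 980 at 65% or more, and intronic density from 6.28 to 430. Exonic bases with at least 60% local GC made up 3.40% of the exonic bases and carried 24.5% of the members. For coding sequence these shares were 9.02% of the bases and 44.6% of the members, and for 3′ UTRs 1.33% and 8.28%.

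Within the GC bins the excess of exons over introns was small. The log2 ratio, combined over the bins of an autosome by the Mantel-Haenszel method, was 0.09 ± 0.16 (SD, n = 19; adjusted p = 0.0394, permutation test over 7 comparisons), higher in exons on 13 of 19 autosomes, and the pooled ratio was 1.06. By bin, exons were denser below 40% GC (1.31 and 1.35 times) and from 60% on (1.25 and 2.28 times), and between 50 and 60% they were at 0.938 and 0.907 times the intronic density. Coding sequence turned from denser to sparser than 3′ UTRs, with a log2 ratio of −0.22 ± 0.21 (SD, n = 19; adjusted p = 0.000402, permutation test), positive on 3 of 19 autosomes. It was lowest relative to 3′ UTRs between 45 and 50% GC, at 0.658 times, and highest between 60 and 65%, at 1.40 times. Against non-coding exons it also turned, to −0.33 ± 0.27 (SD, n = 19; adjusted p = 0.00021, permutation test). With repeat-masked bases left out instead, the 3 ratios remained at 1.57, 1.78 and 1.91 for exons over introns, coding over 3′ UTR and coding over non-coding exons.

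**Figure D2:**
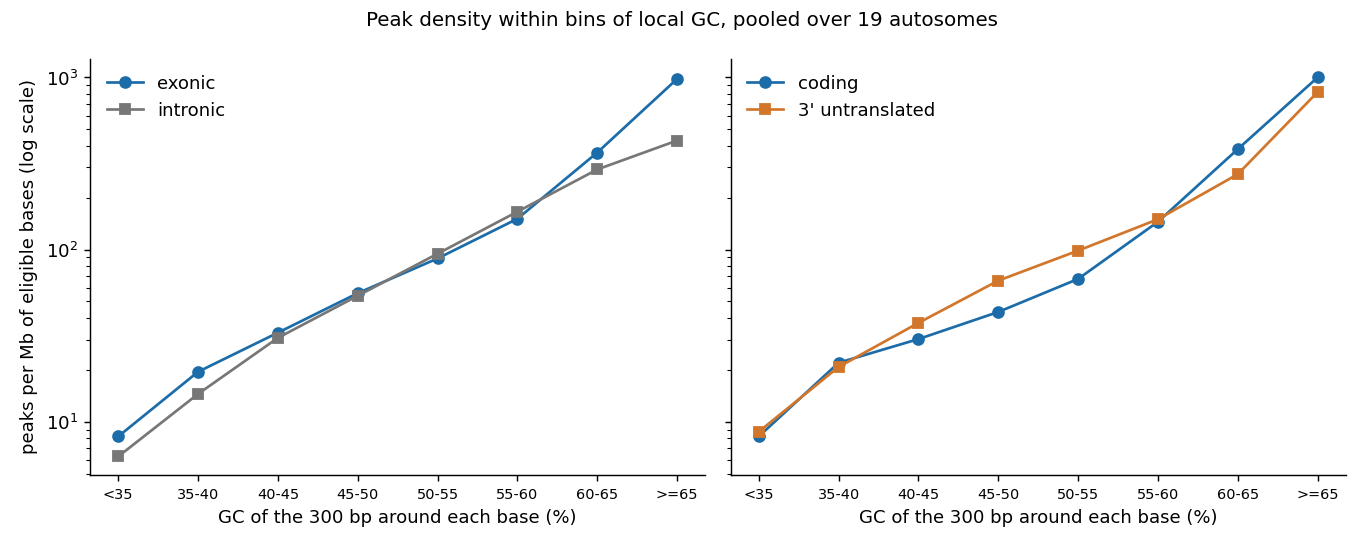
Peaks per Mb of eligible bases on a log scale (y axis) in bins of the GC share of the 300 bp around each base (x axis), for exonic and intronic peaks (left) and for coding and 3′ untranslated peaks (right), pooled over 19 autosomes. All 4 lines rise with GC, the exonic line from 8.21 to 980, and the coding line crosses from below to above the 3′ untranslated line at high GC.

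The distance from a TSS was a further way in which exonic and intronic peaks differed, since the median distance was 5089 bp for members and 11008 bp for intronic peaks. Between 1000 and 2000 bp from a TSS lay 20.5% of members and 8.32% of intronic peaks. The exonic excess was present in each of the 5 distance bins, from 1.47 times the intronic density between 1000 and 2000 bp to 1.65 times beyond 50000 bp. For coding sequence over 3′ UTRs the ratio was 2.68 between 1000 and 2000 bp, 1.58 between 20000 and 50000 bp and 2.40 beyond 50000 bp, where the counts were 72 and 35 peaks.

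By rank in the transcript, 2429 members lay in last exons, 1403 in inner exons, 43 in first exons that reach more than 1000 bp past their TSS, 69 in genes with a single exon and 147 in exons whose rank differed between transcripts. The few eligible bases of first exons (0.241 Mb) held 179 peaks per Mb, the highest density of these ranks. Last exons as a whole were not denser than inner exons, with 72.9 against 79.7 peaks per Mb and a mean log2 ratio of −0.13 ± 0.30 (SD, n = 19; adjusted p = 0.0778, permutation test). With a TSS distance of 500 bp the ratio passed the test at −0.16 (adjusted p = 0.0245, permutation test), and within GC bins it turned to 0.44 ± 0.27 (SD, n = 19; adjusted p = 0.00021, permutation test), positive on 18 of 19 autosomes.

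Within coding sequence last exons were denser than inner exons, in a comparison that did not hold exon length fixed. Coding bases of last exons held 171 peaks per Mb (873 in 5.10 Mb) and those of inner exons 80.9 (1387 in 17.1 Mb). On autosomes the last-exon density ran from 106 on chromosome 14 over a median of 167 to 279 on chromosome 15, and the inner-exon density from 56.4 on chromosome 19 to 111 on chromosome 8. The mean log2 ratio was 1.10 ± 0.30 (SD, n = 19), above 0 on 19 of 19 autosomes (adjusted p = 2.36e-05, permutation test). Within GC bins it was smaller, 0.46 ± 0.37 (SD, n = 19; adjusted p = 0.000303, permutation test), and above 0 on 17 of 19. The median exon length was 2102 bp for coding members of last exons and 215 bp for those of inner exons. Inner coding exons from 500 to below 1000 bp held 194 peaks per Mb, and the part of length in the ratio was not tested.

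Along last exons the density fell from the 5′ to the 3′ end. Over 10 parts of equal length it was 114 and 121 peaks per Mb in the first and the second part and 42.8 in the part at the 3′ end. The share of members with a coding centre fell along with it, from 74.5% in the first of these parts to 2.68% in the last, and so did the GC of the eligible bases, from 49.6 to 38.3%. Split at the midpoint of the exon, the 5′ part held 1314 members at 93.7 per Mb and the 3′ part 926 at 54.0 per Mb, a mean log2 ratio of 0.80 ± 0.19 (SD, n = 19; adjusted p = 2.36e-05, permutation test), above 0 on 19 of 19 autosomes. Within GC bins the ratio was 0.10 ± 0.28 (SD, n = 19; adjusted p = 0.150, permutation test), above 0 on 12 of 19.

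**Figure D3:**
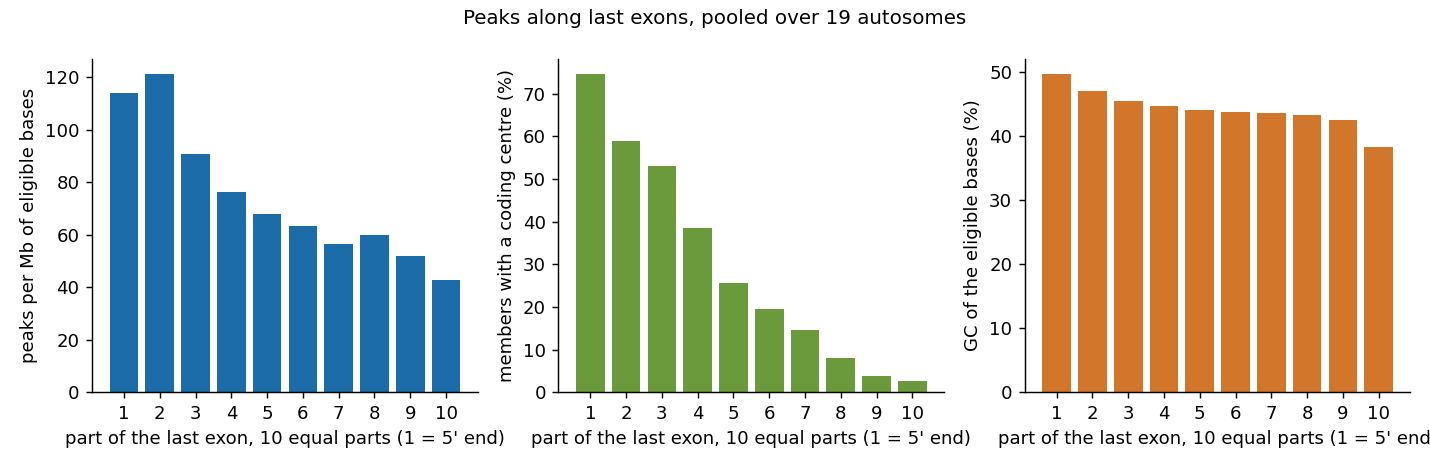
Peaks per Mb of eligible bases (left), share of members whose centre is coding (middle) and GC of the eligible bases (right) in 10 parts of equal length of last exons from the 5′ end (x axis), pooled over 19 autosomes. Density falls from 121 in the second part to 42.8 in the part at the 3′ end, together with the coding share and GC.

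Longer inner coding exons held more peaks per base, up to a length of about 1 kb. Exons below 100 bp had 44.5 peaks per Mb, those from 100 to below 200 bp 59.9, from 200 to below 500 bp 112, from 500 to below 1000 bp 194, from 1000 to below 3000 bp 142 and from 3000 bp on 89.1, the latter from 41 peaks. Exons from 500 to below 1000 bp thus held 14.1% of the inner coding members in 5.90% of the bases. The GC of the eligible exonic bases alone lay between 48.3 and 52.8% over these lengths. The 300 bp around the centres of members had 51.7% GC in the shortest exons and 62.3% in those from 500 to below 1000 bp. The 2 measures differ, because a 300 bp window on a short exon also takes in bases outside it. By GC of the 300 bp around each base, 0.0538 of 1.41 Mb in exons of at least 1000 bp stood at 65% or more. In exons below 200 bp it was 0.0258 of 11.4 Mb. Exons of at least 1000 bp held 124 peaks per Mb (175 members) and exons below 200 bp 56.4 (641 members), with a mean log2 ratio of 1.24 ± 0.58 (SD, n = 19; adjusted p = 2.36e-05, permutation test), above 0 on 19 of 19. Within GC bins it was 0.29 ± 0.62 (SD, n = 19; adjusted p = 0.0637, permutation test).

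**Figure D4:**
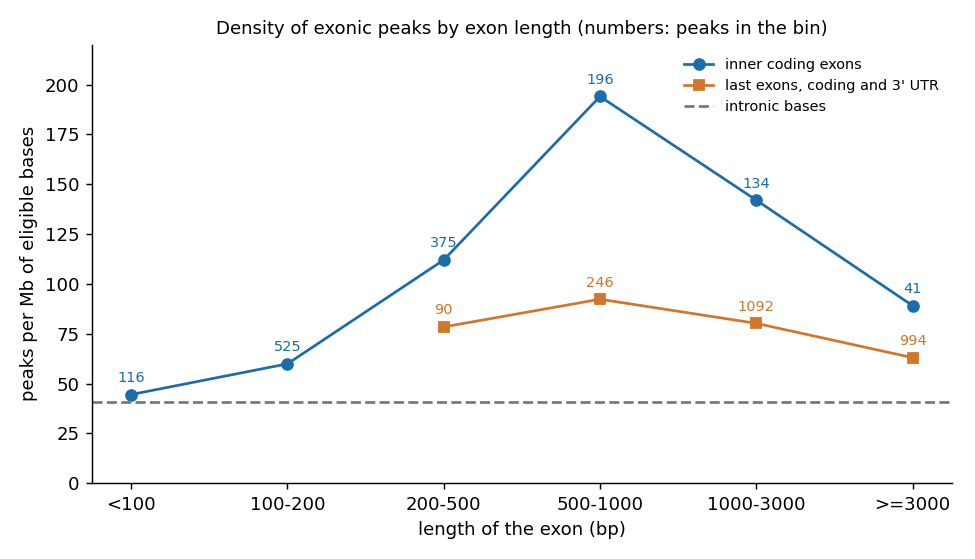
Peaks per Mb of eligible bases (y axis) by length of the exon (x axis) for inner coding exons and for last exons, pooled over 19 autosomes, with the number of peaks beside each point and the intronic density as a dashed line. Bins with under 20 peaks are not drawn. Inner coding exons peak at 194 per Mb between 500 and 1000 bp, and last exons stay between 63.0 and 92.3.

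Few members had the outline of an exon. The median member was 444 bp wide and its exon 1643 bp long. The whole peak lay within the exon for 2895 members (53.0%), covered the whole exon for 1115 (20.4%), and had less than 50% of its bases in any exon for 624 (11.4%). These shares followed exon length. In 3′ UTRs 78.6% of the peaks lay within the exon. Of the 1387 coding members in inner exons, whose exons had a median length of 215 bp, 61.7% covered the whole exon. The median share of exonic bases over all 1387 was 57.4%. Both edges lay within 25 bp of both edges of 1 exon in only 24 of 5458 members.

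The borders of the matched exons in the 4 closest matches are shown to place these peaks, 5′ to 3′ on the strand of the gene. Bases of the matched exon are in capitals and bases outside it in lower case. In Mzf1 and C430002N11Rik the lower-case bases past the exon end lie within a longer exon of another transcript.
Mzf1 exon start, chr7:13044686-13044715, minus strand: ggtcccgttgtgcagGGTTTACGCTGCAGA
Mzf1 exon end, chr7:13043132-13043161, minus strand: ATGATGTCTCCCCAAcctgcacatttcttc
Nfrkb exon start, chr9:31410352-31410381, plus strand: gttgcttttcctcagTGTGCTTCTGGTGTC
Nfrkb exon end, chr9:31410623-31410652, plus strand: AAAGTAGTACCCCAGgtaaatggatgctgc
Chd6 exon start, chr2:160990410-160990439, minus strand: tggtgacctgctcagGTACAGCAGCTCTCA
Chd6 exon end, chr2:160990230-160990259, minus strand: TCCACTTTTGCCAAGgtaggtgatcctccc
C430002N11Rik exon start, chr9:96773221-96773250, plus strand: ctttccactccgcagGAGGTAGAATAAAGC
C430002N11Rik exon end, chr9:96773597-96773626, plus strand: AACAACAAAAAGAAAccacatactcaactt
In Mzf1, a zinc finger transcription factor gene, a 1561 bp peak ended 1 bp and 6 bp from the borders of the last of 5 exons of 1 transcript. In Nfrkb, which encodes a protein of the INO80 chromatin remodelling complex, a 264 bp peak lay inside exon 21 of 26 with edges 4 and 3 bp from its borders. In Chd6, a chromatin remodeller gene, a 183 bp peak lay on exon 19 of 37, with edges 6 and 3 bp from its borders. In C430002N11Rik, a non-coding RNA gene, a 383 bp peak matched the last of 3 exons of a transcript with a retained intron, 1 and 8 bp from its borders. The 6 next closest lay in Hoxb8, Arid5b, Fgfrl1, Dnah17, Frmd4a and in the non-coding Gm43055, whose exon overlaps Ythdc1.

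Exonic peaks were wider, richer in GC and CpG and poorer in repeats than intronic peaks. The median width per autosome was 451 ± 46.4 bp against 376 ± 19.8 bp (SD, n = 19; adjusted p = 2.36e-05, permutation test), wider on 18 of 19 autosomes. In the 300 bp around the centre, GC averaged 53.5 ± 1.90% against 48.1 ± 0.975%, the observed to expected ratio of CpG 0.388 ± 0.0326 against 0.234 ± 0.0130, and the share of repeat-masked bases 10.7 ± 1.76% against 19.3 ± 1.23% (SD, n = 19; adjusted p = 2.36e-05 for each, permutation test), with each difference in the same direction on 19 of 19 autosomes. The nearest other peak lay at a median of 4209 ± 594 bp from an exonic and 5146 ± 392 bp from an intronic peak (SD, n = 19; adjusted p = 2.36e-05, permutation test). These values stand beside the host bases, which had 45.4% GC and 16.0% repeats in exons and 42.2% GC and 29.8% repeats in introns.

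Coding members were the widest and the richest in CpG of the 3 large classes. Their median width was 528 bp, against 388 bp in 3′ UTRs, 383 bp in non-coding exons and 373 bp in introns. Their mean GC was 58.2%, against 49.8% in 3′ UTRs and 49.4% in non-coding exons. Averaged over autosomes, the median width was 527 ± 59.8 bp in coding sequence and 393 ± 45.1 bp in 3′ UTRs (SD, n = 19, no test), with coding wider on 19 of 19. A CpG ratio above 0.6, a level commonly used for CpG islands, was found in 34.5% of coding members, 6.01% of 3′ UTR members, 6.44% of non-coding members and 2.95% of intronic peaks. The 857 coding members of this kind had a median width of 786 bp and lay at a median of 4076 bp from a TSS, and the other 1625 had 418 bp and 5793 bp. Members of at least 1000 bp were coding in 64.0% of cases and members under 250 bp in 38.1%.

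**Figure D5:**
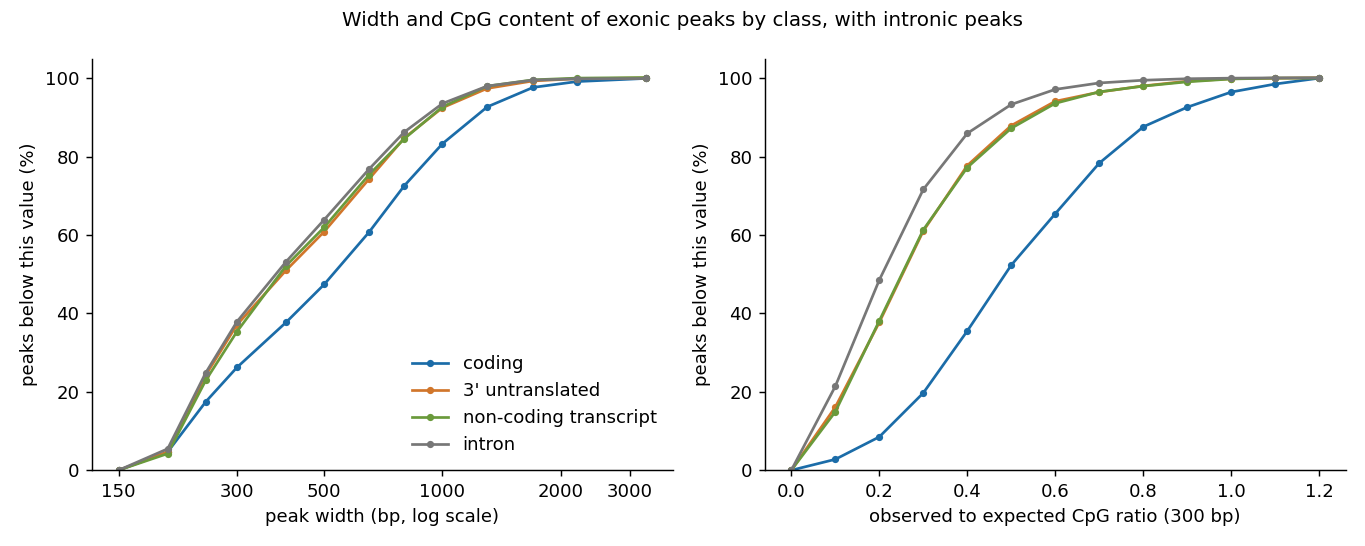
Share of peaks below a given width in bp (left, log scale) and below a given observed to expected CpG ratio in 300 bp (right) for coding, 3′ untranslated and non-coding exonic members and for intronic peaks. The coding line runs to the right of the other 3 between 250 and 2200 bp in the width panel, with a median width of 528 bp, and at every CpG ratio drawn below 1.

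Of 7 motifs compared, 4 were less frequent in members than in intronic peaks (octamer, OCT4::SOX2, SOX and ESRRB), and for CTCF, KLF and AP-2 the difference did not pass the test. The windows of members were also richer in GC than those of intronic peaks (53.5 against 48.1%), and the part of GC in the motif shares was not tested. Each motif was matched on both strands in the 300 bp window. A match is a description of the sequence, not a bound site. The octamer ATTTGCAT, which OCT4 binds, was found in 60 members, or 1.11 ± 0.606% per autosome, against 1.81 ± 0.348% of intronic peaks (SD, n = 19; adjusted p = 0.00084, permutation test over 7 motifs), and was more frequent in members on 1 of 19 autosomes. The composite OCT4::SOX2 consensus with up to 2 mismatches, which contains the octamer, was found in 18 members, or 0.324 ± 0.292% against 0.543 ± 0.161% (adjusted p = 0.0297, permutation test). The SOX motif, which is CC, then A or T, then TTGT, then C or T, and shares part of its letters with the composite, was found in 7.34 ± 2.11% against 8.75 ± 0.905%, and the ESRRB motif TCAAGGTCA in 1.60 ± 0.881% against 2.26 ± 0.369% (adjusted p = 0.0297 for each, permutation test). Of all autosomal peaks, 1.84% held the octamer, 0.507% the composite, 7.90% the SOX and 1.85% the ESRRB motif. The composite was no longer past the threshold in whole peaks (adjusted p = 0.0591) or with a TSS distance of 2500 bp (adjusted p = 0.144), and the SOX motif was not in whole peaks (adjusted p = 0.149, each by permutation test).

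The 3 motifs that did not pass are given next. The CTCF consensus with up to 1 mismatch was found in 744 members, or 13.7 ± 2.25% per autosome against 13.4 ± 1.61% of intronic peaks (SD, n = 19; adjusted p = 0.635, permutation test), where all autosomal peaks had 11.7%. The KLF motif, which is GGGCG or GGGTG followed by G or T and then GGC, stood at 7.60 ± 1.63% against 6.88 ± 1.48% (adjusted p = 0.140), higher in members on 15 of 19 autosomes, and the AP-2 motif, CCTCAGG or CCTGAGG between 2 bases that are each C or G, at 4.53 ± 1.62% against 4.40 ± 0.569% (adjusted p = 0.761, permutation test). All autosomal peaks had 8.21% and 4.24%. With 1 mismatch more, or over the whole and wider peaks, these 3 motifs were more frequent in members, by 6.63 percentage points for CTCF, 7.92 for KLF and 5.62 for AP-2 in the former case. With 1 mismatch more the deficit of the other 4 motifs grew as well, to −7.21 percentage points for the octamer, −8.85 for SOX, −2.18 for OCT4::SOX2 and −2.13 for ESRRB, so that the sizes of all 7 differences depend on the mismatches allowed.

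Among the members, CTCF matches were unevenly spread. They were found in 16.8% of 3′ UTR members (interval 15.1 to 18.7%), 15.4% of non-coding members and 10.8% of coding members (interval 9.60 to 12.0%). The coding share was above the 3′ UTR share on 1 of 19 autosomes (10.9 ± 1.87% against 17.0 ± 4.39%, SD, no test). The closest match lay within 50 bp of the centre in 39.2% of the members with a match and in 38.8% of the intronic peaks with one. Members with a match were 512 bp wide in the median and members without 431 bp.

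Most host genes had 1 member. Of 19788 protein-coding genes with eligible exonic bases, 3770 (19.1%) held a member, of which 3040 held 1 and 730 (19.4%) held 2 or more. The gene with the most members per length among those with 6 was Eif4g2, which encodes a translation initiation factor related to eIF4G. Its 6 members all lay in the 3′ UTR within its 5008 bp last exon on chromosome 7 (111067750-111072757) and were 208 to 401 bp wide, with 37.0 to 43.7% GC. Ttbk1, a tau kinase gene, also held 6 members, 5 of them in the 3′ UTRs of 2 alternative last exons and the widest 1165 bp. Mycbp2, a ubiquitin ligase gene, held 6 as well, of which 3 each spanned a border of inner coding exons 34, 73 and 83 of 85 and 3 lay in 1 non-coding exon. There were 5 members each in Rin3, Nabp1, Apc2, Trio, Ryr1 and D1Ertd622e, and Zfp64 was the one with the most members per eligible length of the 27 genes that held 4.

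Members were spread over several exons in a few genes. Ryr1, the calcium release channel gene of skeletal muscle, held members in 5 separate exons, of which 4 were inner coding exons (13, 31, 32 and 91 of 106) with peaks of 234 to 886 bp. Its widest, over exon 91, had 74.7% GC and a CpG ratio of 0.948. Mycbp2, Trio, Rin3, Sptbn4, Ptprb, Nav3, Phip, Bsn and Rcor3 each held members in 4 separate exons. Wscd2 and Adgrv1 did so too and fell outside the 10 named genes only by the order of gene identifiers. Trio had 3 coding members of 365, 726 and 930 bp that each covered a whole inner exon, and all 4 members of Sptbn4, a spectrin gene, and of Bsn, a gene of the presynaptic active zone, were coding.

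Of the 10 widest members 5 lay in genes with a single exon, and all 10 had their centre at 1013 to 2576 bp from a TSS. They were Fzd8, a Wnt receptor gene (3264 bp), Irf2bpl (2855 bp), the forkhead gene Foxb1 (2853 bp), the imprinted gene Peg12 (2588 bp), the adrenergic receptor gene Adra2c (2584 bp), the zinc finger gene Egr4 (2570 bp), Npr3, a natriuretic peptide receptor gene (2559 bp), Sema6c, a semaphorin gene (2549 bp), the metalloprotease gene Adamts5 (2514 bp) and B430305J03Rik (2497 bp). Of these, 6 were coding, 2 lay in 3′ UTRs, 1 in a 5′ UTR and 1 in a non-coding exon. Their CpG ratio ran from 0.500 in Npr3 to 0.954 in Sema6c. The peaks in Fzd8, Irf2bpl, Foxb1, Peg12, Egr4 and Npr3 were wide enough to reach over a TSS, since the rule tests the centre alone.

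Of 20 pluripotency genes on the list, 8 held a member, beside 19.1% of all protein-coding genes with eligible exonic bases. Their 11 members stood at 160 per Mb of eligible exonic bases, beside 69.8 for all protein-coding genes, a description with no test. In Nanog, which encodes a core pluripotency factor, a 2318 bp peak covered the 87 bp exon 3 of 4 on chromosome 6 (122711473-122713790), with 43.2% of its bases exonic. Klf5 held 2 members, of 499 bp in coding exon 2 and of 952 bp across the start of its last exon. Tet2, a gene of DNA demethylation, held 3, of 183 and 233 bp in coding sequence and of 360 bp in a non-coding exon, and its paralog Tet1 held 1 of 304 bp in the 3′ UTR. The other members were coding peaks of 195 bp in Klf2, 196 bp in Tbx3, 320 bp in Zfp42 and 188 bp in Prdm14. Sox2, Esrrb, Klf4, Sall4, Nr5a2, Tfcp2l1, Lin28a, Dppa2, Dppa4, Utf1 and Tdgf1 held none. Pou5f1 had 0 eligible exonic bases, because all its exons lie within 1000 bp of an annotated TSS, so that its exons could not hold a member.

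Of the genes whose sequences went into the constructs, Ccnb1 held 1 member of 411 bp, in an exon of a non-coding transcript and with 66.0% repeat-masked bases around its centre, and Pgk1 lies on the X chromosome and was outside the rule. Among the RT-qPCR genes on the list, Klf5 held 2, Eomes 1 of 396 bp across the start of its last exon and Cntln 1 of 908 bp that covered the 98 bp exon 20 of 26, whereas Myc and Dlx3 held none.

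Gene families differed widely in members per eligible exonic length, given here as a description with no test. All protein-coding genes together had 69.8 members per Mb. Hox genes, which pattern the body axis, had 208 (10 members in 10 of 38 genes, all coding). The clustered protocadherins, neuronal adhesion genes with large variable exons, had 160 (32 members in 30 of 57 genes), and these all lie on chromosome 18. Ribosomal protein genes had 107 from 9 members and histone genes 137 from 3. Zinc finger genes named Zfp had 87.1 (133 members in 99 of 384 genes), of which 103 lay in last exons, where such genes commonly encode their finger arrays. Olfactory receptor genes had 23.6 (51 members in 43 of 1043 genes), with a median width of 285 bp.

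Exons of non-coding transcripts were themselves a mixture. Exons of long non-coding RNA genes held 566 members at 61.5 per Mb, non-coding transcripts of protein-coding genes 557 at 45.4, transcripts of the annotation class TEC 153 at 43.1 and pseudogenes 89 at 39.7. The median width was 444 bp in long non-coding RNA genes and between 348 and 363 bp in the other 3.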

How the data were processed

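The deposited list gives the position in bp of each merged peak, with no counts, signal or score. Per the study's methods, the authors aligned ATAC-seq reads to GRCm38 with STAR 2.6.1c, removed duplicates with Picard, called peaks with MACS2 2.1.1.20160309 and merged the peaks of dox-treated OCT4-AID experiments with bedtools; whether calls were made per library was not given in the sources used here. The stated removal of peaks over 5 kb had not been applied to all of the list, in which 10 autosomal peaks and 0 members exceeded it. A merge keeps peaks found in any of the merged calls and can widen them, and how widths depend on depth was not tested. Peaks on short exons can extend beyond the exon.

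Positions were intersected with GENCODE M21 and the GRCm38.p6 sequence, 1-based, with Python 3.11.15, numpy 2.4.6 and pandas 2.3.3. A base that was coding in any transcript of type protein_coding counted as coding, then as 3′ UTR or 5′ UTR of such a transcript. All other exonic bases counted as non-coding. Exon length was that of the longest exon over the base. Densities were compared as log2 ratios per autosome, with 0.5 peaks added to each count, by two-sided sign-flip permutation tests with 100000 resamples and Benjamini-Hochberg adjustment (threshold 0.05). The autosomes take the place of replicates here, so that p-values measure the spread between chromosomes of 1 list and not between samples. The tests were checked on simulated counts and planted motifs. The sequences printed come from GRCm38.

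Genes were named by rule: the 10 protein-coding genes with the most members, the 10 with members in the most separate exons, the 10 widest members, up to 10 with both edges within 25 bp of an exon's, and listed pluripotency, construct and RT-qPCR genes. Ties were broken by members per eligible length in the first list and by number of members, then gene identifier, in the second. The members, lists and tests were chosen with earlier results of these data known. Peaks on X and Y were not used here. Alternatives covered TSS distance, narrow and wide peaks, the transcript set, chromosome 14, the share of exonic bases, whole peaks, exon rank and length, motif mismatches, and, added after the data had been seen, local GC and repeats.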

Additional observations from a re-analysis of the deposited data

How the results depend on the processing

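No paired analysis was possible because the list has no columns for samples. Of 165 alternative values for 20 tested results, 142 kept direction and side of the threshold, and the cause was not tested for the others. This leaves out the 21 values without peaks over 5 kb, of which the members hold 0. The number of members, which has no test, ranged from 3942 to 6453 with TSS distances of 2500 and 500 bp. Within bins of local GC the log2 ratio turned to −0.218 for coding over 3′ UTR, −0.328 for coding over non-coding exons and 0.444 for last over inner exons, and lost its call for long over short inner coding exons (0.293) and for the 5′ over the 3′ part of last exons (0.0959). With a TSS distance of 500 bp, coding over 5′ UTR lost its call (0.0293) and last over inner exons gained one (−0.163). The difference in CTCF share, in percentage points, turned to −0.0132 and −0.0624 with TSS distances of 500 and 2500 bp, and to −0.0282 and −0.563 with basic and with protein_coding transcripts; that in AP-2 share turned to −0.113 at 2500 bp and to −0.111 and −0.375 with those transcript sets. Over whole peaks CTCF (2.63), KLF (2.05) and AP-2 (1.14) gained a call and OCT4::SOX2 (−0.249) and SOX (−0.774) lost theirs, as did OCT4::SOX2 at 2500 bp (−0.182). With 1 mismatch more CTCF (6.63), KLF (7.92) and AP-2 (5.62) gained one. With protein_coding transcripts coding over non-coding exons has no value. Depth, which is unknown, limits which peaks are in the list.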
